A study of Mus musculus with 8 samples.

Results

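The genes described are the constitutive proteasome genes: every gene in the deposited gene table whose symbol starts with Psma, Psmb, Psmc, Psmd or Psme and a digit, apart from the interferon-inducible Psmb8, Psmb9 and Psmb10. The rule found 42 of 31053 genes. By role they were 7 alpha-ring genes, 3 catalytic and 4 structural beta-ring genes, 6 ATPases and 3 other genes of the base, 8 genes of the lid, 3 chaperones of base assembly, 4 activators and 2 tissue-restricted subunits, and 2 symbols that match the rule but encode no listed subunit (Psmc3ip and Psme2b). The study profiled CD45+ cells by droplet single-cell RNA sequencing after magnetic sorting, from the brains of normal mice (control, 4 samples) and from tumours in mice that carried a glioma (4 samples). Strain, age, tumour model and treatment are not given in the sources used here. The counts form 1 pooled library per group with no map from cells to animals, so no difference below has a replicate check, and no test was run.

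The proteasome is the protease that degrades most proteins tagged with ubiquitin in the cytosol and nucleus. Its core is a barrel of outer alpha rings and inner beta rings, and the catalytic sites sit inside the barrel. A cap called the regulatory particle, with a base of ATPases and a lid that removes ubiquitin, unfolds substrates and feeds them into the core. In cells exposed to interferon gamma, Psmb8, Psmb9 and Psmb10 can take the places of Psmb5, Psmb6 and Psmb7, which gives the immunoproteasome, and the PA28 activator made of Psme1 and Psme2 can replace the cap. Peptides made by the proteasome are the main source of peptides shown on MHC class I.

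The control library held 124023146 unique molecular identifiers (UMIs) and the glioma library 159689787. Barcodes with at least 1000 UMIs and at most 10% mitochondrial UMIs were kept, which left 13680 control and 11049 glioma barcodes with medians of 6842 and 11332 UMIs. Of these, 49 and 97 also had at least 300 UMIs in the other library. Classes were gated on the raw UMIs of marker genes, and 971 control and 5997 glioma barcodes met no gate. The control library consisted mostly of microglia (12388 barcodes), whereas the glioma gates held 3040 monocytes or macrophages (macrophages below), 1109 T cells, 465 barcodes of the neutrophil gate, 323 dendritic cells and only 37 microglia. A level is given in CPM, the UMIs of a gene or list scaled to the same total in every class, and intervals are exact 95% intervals that cover counting error only. A log2 ratio is the log2 of the ratio of CPM with 0.5 UMIs added to each sum. Because 3′ tag counts differ in efficiency between genes, levels were compared between cells and not between genes.

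Promoter stretches with motifs of factors known to control proteasome genes are shown for 4 of the genes with a match. These 4 were chosen after the matches were seen. They are the catalytic subunits Psmb5 and Psmb6, the PA28 gene Psme1 and the inducible subunit Psmb8. Psme1 and Psmb8 also enter the interferon comparison below. The windows run from 250 bases before to 50 after each start site in RefSeq (mouse build GRCm38.p6), and 35 of the 42 genes, with 38 windows in all, and the 3 inducible counterparts had at least 1. Psmb7, Psmc3, Psmb2, Psmd7, Psmd3, Psmb1 and Psma8 were not matched. The antioxidant response element bound by the NRF factors, searched as TGACNNNGC on both strands, was present in 15.79% of the members' windows and in 12.39% of all windows. The members were Psmb5, Psmb6, Psmc6, Psmd12, Psmd9 and Psme4. It lay before the start sites of Psmb5 (chr14:54618009-54618067, minus strand) and Psmb6 (chr11:70525323-70525356, plus strand), which encode catalytic subunits. The interferon-stimulated response element, searched as a pair of GAAA words with any 2 bases between them, on both strands, was present in 10.53% of the members' windows and in 3.443% of all windows, and the members were Psmb3, Psmd4, Psmd9 and Psme1. In Psme1 (chr14:55578493-55578522, plus strand) it lay on the minus strand, 10 to 19 bases after the start site. The gamma-activated site, TTCNNNGAA, was present in 2.632% of the members' windows, with Psmd2 the member concerned, and in 8.298% of all windows. It was also found in the inducible Psmb8 (chr17:34198073-34198131, plus strand), from 97 to 89 bases before the start site. Neither this site nor the interferon-stimulated response element was matched in the windows of Psme2, Psmb9 or Psmb10, and Psmb8 lacked the latter. The stretches read 5′ to 3′ on the gene's strand, with the match in capitals.
Psmb5, antioxidant response element: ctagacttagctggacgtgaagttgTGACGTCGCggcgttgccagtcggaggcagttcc
Psmb6, antioxidant response element: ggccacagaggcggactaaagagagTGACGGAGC
Psme1, interferon-stimulated response element: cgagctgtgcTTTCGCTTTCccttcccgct
Psmb8, gamma-activated site: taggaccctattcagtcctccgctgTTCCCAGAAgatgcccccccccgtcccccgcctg
A match is a match of letters only, and binding was not measured.

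Summed over the 42 genes, the proteasome level was low in microglia and high in glioma macrophages and dendritic cells. The sum was 3333 CPM in control microglia, 5043 CPM in control endothelial cells, 5659.8 CPM in glioma T cells, 6099.7 CPM in glioma monocytes or macrophages and 7219 CPM in glioma dendritic cells. The smaller control classes lay between 2517 CPM in the neutrophil gate (56 barcodes) and 5472 CPM in monocytes or macrophages (23 barcodes), with 4497 CPM in T cells (44 barcodes) and 3712 CPM in B cells (32 barcodes). In the glioma library, NK cells (45 barcodes) stood at 3707 CPM, B cells (29 barcodes) at 3936 CPM and microglia (37 barcodes) at 3543 CPM. The intervals of the B cells of both libraries and of the glioma NK cells overlapped, as did those of the glioma microglia and NK cells. The glioma B cell gate also held marker transcripts of plasmacytoid dendritic cells, at 911 CPM against 42 CPM in the control gate. Barcodes of free RNA, far below the cell range in depth, stood at 3981 CPM in the control and 5156 CPM in the glioma library, so the gated classes stood on both sides of the free RNA of their own library. With barcodes of at least 2000 UMIs thinned to that number, the median number of member UMIs per cell was 6 in control microglia, 11 in glioma monocytes or macrophages, 9 in glioma T cells and 13 in glioma dendritic cells. This left out 1137, 36, 18 and 7 shallower barcodes of these classes.

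**Figure D1:**
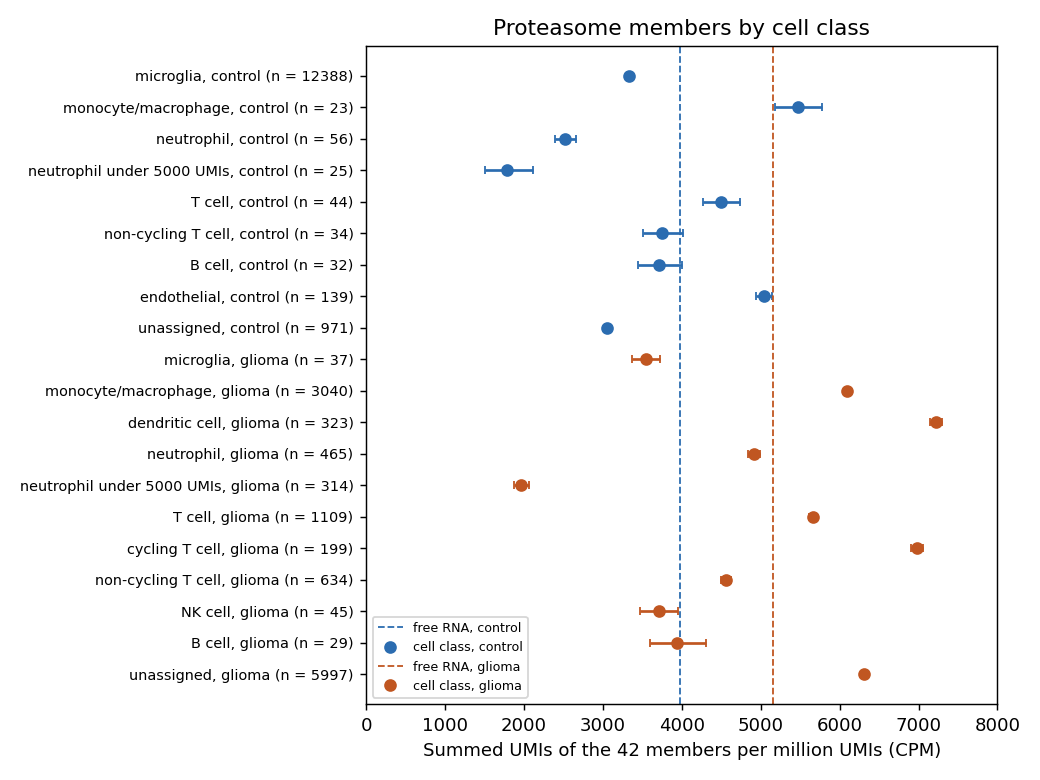
Summed level of the 42 proteasome genes (x axis, CPM) in gated classes of at least 20 barcodes (rows, with the number of barcodes). Rows also show barcodes that met no gate, the neutrophil gate under 5000 UMIs, and T cells split by cycle genes. Bars are exact 95% counting intervals, and dashed lines are free RNA of each library. Control microglia sit at 3333 CPM, left of glioma monocytes or macrophages at 6099.7 CPM and dendritic cells at 7219 CPM.

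Glioma monocytes or macrophages carried 1.83 times the summed proteasome level of control microglia, and the core particle and the activators differed more than the cap. Of the 41 members with at least 20 UMIs, 24 were at least 1.5-fold higher, against 22% of the 14554 genes compared, and 2 were at least 1.5-fold lower, against 43.3%. The median log2 ratio was 0.70 for the members and -0.38 for all genes compared. Centred on that median, 35 members were higher and 2 lower. The comparison sets cell types of different libraries against each other, so cell type, tumour and library cannot be told apart in it. Within the control library the 23 monocytes or macrophages had 5472 CPM against 3333 CPM in microglia. Within the glioma library the 37 microglia had 3543 CPM, but their microglia marker genes were lower than in control microglia (1346 against 9001 CPM).

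The alpha ring, which gates entry to the core, was higher in macrophages for all of its 7 genes, with a median log2 ratio of 1.23. Psma7 stood at 447.6 CPM in glioma macrophages against 139.5 CPM in control microglia, the highest ratio of any member at 1.68 (1.65 to 1.71). Psma4 was at 222.8 against 93.1 CPM, a log2 ratio of 1.26. Each of these levels came from at least 8205 UMIs, so counting error is small beside the difference. The catalytic beta subunits were also all higher, Psmb5 (the chymotrypsin-like site) at 187.3 against 102.8 CPM, Psmb6 (the caspase-like site) at 262.9 against 132.4 CPM and Psmb7 (the trypsin-like site) at 137.9 against 63.9 CPM. Their log2 ratios were 0.87, 0.99 and 1.11. The 4 structural beta subunits had a median of 0.86, from 0.74 in Psmb2 to 1.27 in Psmb4.

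The cap was less different. Over all genes compared, 22% were at least 1.5-fold higher and 43.3% lower, and the counts of cap genes are to be read against these shares. The 6 ATPases of the base, which unfold substrates, had a median log2 ratio of 0.46, and 2 of them (Psmc1 and Psmc4) passed 1.5-fold. Psmc2 was at 84.7 CPM in macrophages and 80.0 CPM in microglia, a log2 ratio of 0.08 (0.02 to 0.14). The 8 lid genes had a median of 0.43, and 2 of 8 passed 1.5-fold. Psmd14, the deubiquitinase of the lid, was the highest of them at 84.7 against 37.4 CPM, a log2 ratio of 1.18, whereas the scaffold subunit Psmd11 was at 93.6 against 92.2 CPM and its interval spanned 0 (-0.03 to 0.08). The ubiquitin receptor Psmd4 was at 149.9 against 100.7 CPM, a log2 ratio of 0.57, and its neighbour in the base Psmd2 had 0.62. The chaperones Psmd5, Psmd9 and Psmd10 had a median of 0.29 and none passed 1.5-fold. Over the alternative settings the log2 ratio ran from 1.59 to 2.06 for Psma7 and from 0.97 to 1.56 for Psmd14, against 0.02 to 0.47 for Psmc2 and -0.00089 to 0.40 for Psmd11.

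All 4 activators were higher in macrophages, with a median log2 ratio of 1.08. Psme2 was at 318.2 against 109.8 CPM (1.53) and Psme1 at 518.4 against 197.4 CPM (1.39); these encode the beta and alpha chains of PA28. Psme3, the nuclear PA28 gamma, was at 42.8 against 25.2 CPM (0.77) and Psme4, the PA200 activator, at 49.5 against 30.6 CPM (0.70). The inducible Psmb8, Psmb9 and Psmb10, which are outside the rule, had log2 ratios of 1.72, 1.998 and 1.51, above their constitutive counterparts in each case. Of 29 measured genes for assembly, regulation and ubiquitin supply, 7 were at least 1.5-fold higher, near the 22% of all genes compared. Another 3 were lower, against 43.3%, and the median was 0.09. Sem1, the small lid subunit with a symbol outside the rule, was the highest of these at 1.96.

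**Figure D2:**
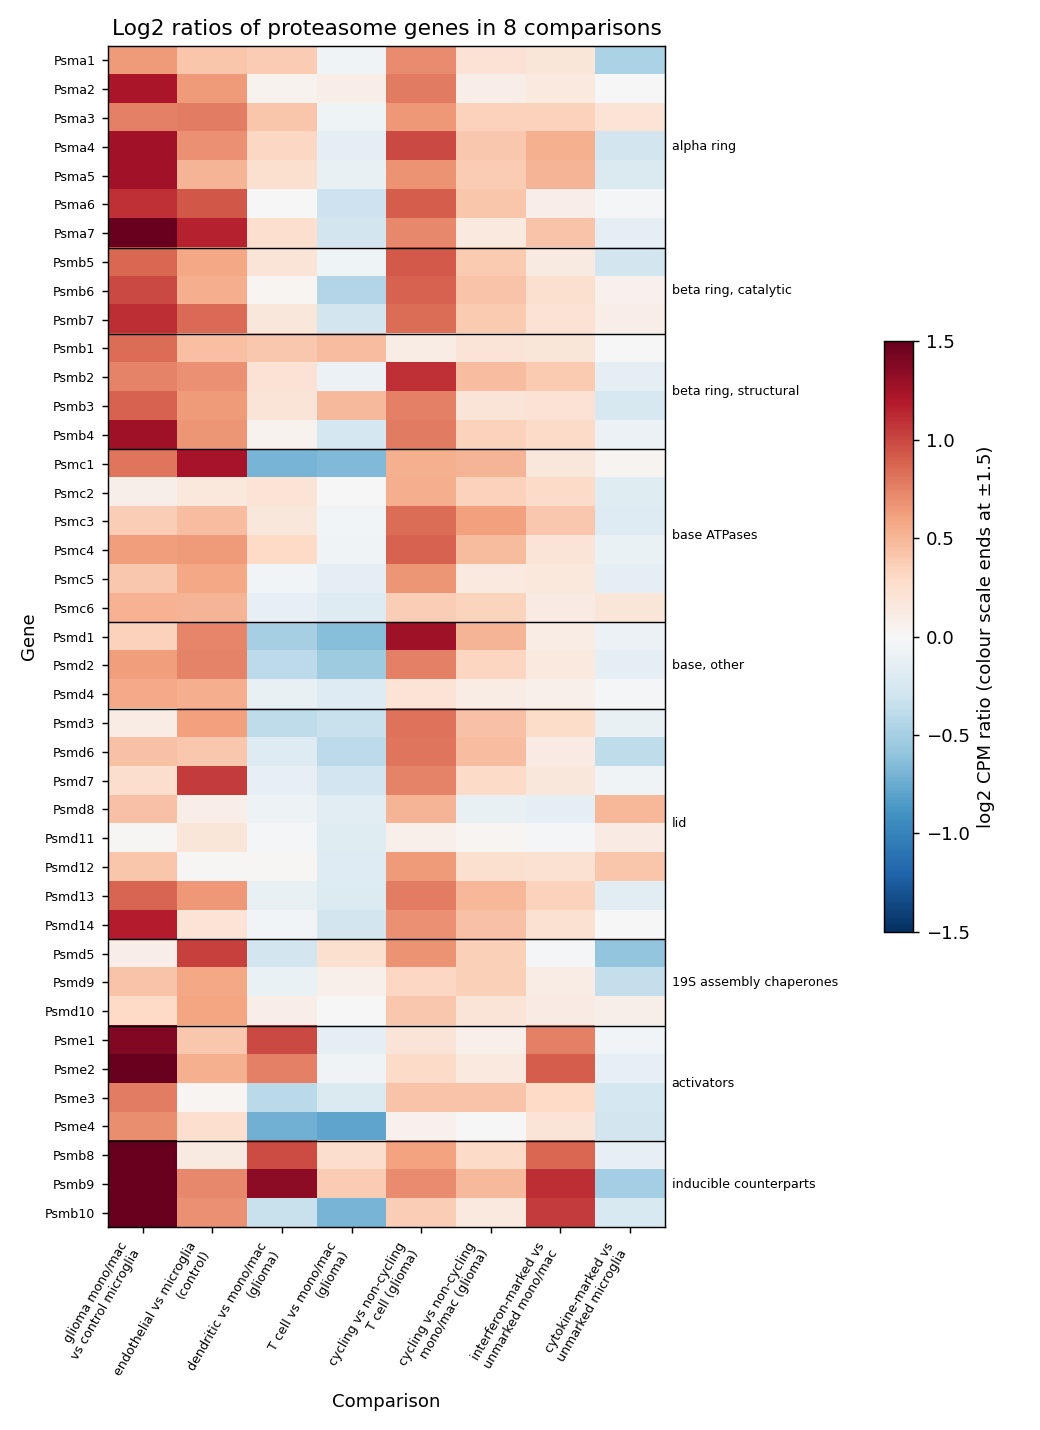
Log2 ratio of CPM (colour, scale ending at ±1.5) for 38 members and the 3 inducible genes (rows, grouped by role) in 8 comparisons (columns). The first column shows the alpha ring (median 1.23) and Psme1 and Psme2 darker than the ATPases (0.46) and the lid (0.43); Psmb11, Psma8, Psmc3ip and Psme2b are not drawn.

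The remaining members behaved unlike the subunits. Psmb11, the thymus catalytic subunit, had no UMI in the glioma macrophages, dendritic cells or T cells and almost none in control microglia. Psma8, a subunit of the testis, was at 3.4 CPM in control microglia, 1.0 CPM in glioma macrophages and 8.5 CPM in control endothelium. Psmc3ip, a factor of homologous recombination and not a proteasome subunit, was at 23.2 CPM in cycling and 2.8 CPM in non-cycling glioma T cells, a log2 ratio of 2.997, and it had a ratio of 3.11 in the same contrast of macrophages. Psme2b is a retrogene of Psme2 on chromosome 11 (48945354 to 48946190, minus strand, in GENCODE vM21 on GRCm38). Of its 31-base words, 76.46% also occur in Psme2 transcripts, so reads of the pair may be split and the values of Psme2b are uncertain. Counts of Psme2 may be affected as well, and the size of this was not tested. Psme2b was at 12.9 CPM in glioma macrophages and 27.2 CPM in control microglia, a log2 ratio of -1.07, opposite in sign to Psme2.

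Among glioma monocytes or macrophages, those with interferon-induced genes were higher in PA28 and in the inducible catalytic subunits far more than in the rest of the proteasome. Interferon-marked cells (1895 barcodes with at least 4 UMIs of Cxcl9, Gbp2, Gbp4, Gbp5 and Iigp1) were set against unmarked cells (657 barcodes with at most 1). Psme2 was at 364.3 against 194.5 CPM, a log2 ratio of 0.90 (0.82 to 0.99), and Psme1 at 577.8 against 343.0 CPM, a ratio of 0.75 (0.69 to 0.82). Psmb9, Psmb10 and Psmb8 had 1.10, 1.05 and 0.86. The catalytic subunits they replace had 0.13 for Psmb5, 0.24 for Psmb6 and 0.22 for Psmb7, close to the members' median of 0.21. Of 41 members, 3 were at least 1.5-fold higher, against 13.1% of the 11603 genes compared, and none lower, against 5.51%. The 3 were Psme1, Psme2 and the uncertain Psme2b, at 1.18. The median of all genes compared was 0.09.

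Among members with at least 50 UMIs in each sum, the alpha-ring genes Psma4 (0.53) and Psma5 (0.51) came next after PA28, and the lid subunit Psmd8 was the lowest at 186.6 against 205.2 CPM, a log2 ratio of -0.14 (-0.22 to -0.05). Psme3 and Psme4 had 0.29 and 0.20. The assembly chaperone Pomp was the highest of the 29 assembly and regulatory genes at 0.55, and none of the 29 passed 1.5-fold. Marked cells were deeper (medians of 14217 and 9164 UMIs), so the contrast was repeated within bands of depth. Psme1 had log2 ratios of 0.91, 0.78, 0.69 and 0.995 and Psme2 0.94, 1.23, 0.81 and 0.84 at 2500 to 5000, 5000 to 10000, 10000 to 20000 and at least 20000 UMIs. Psmb5 had 0.27, -0.16, 0.03 and -0.01 in the same bands. The difference between PA28 and Psmb5 was therefore present in each of these 4 bands, and the median of all members was 0.38 in the shallowest band and 0.12 to 0.16 in the others.

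**Figure D3:**
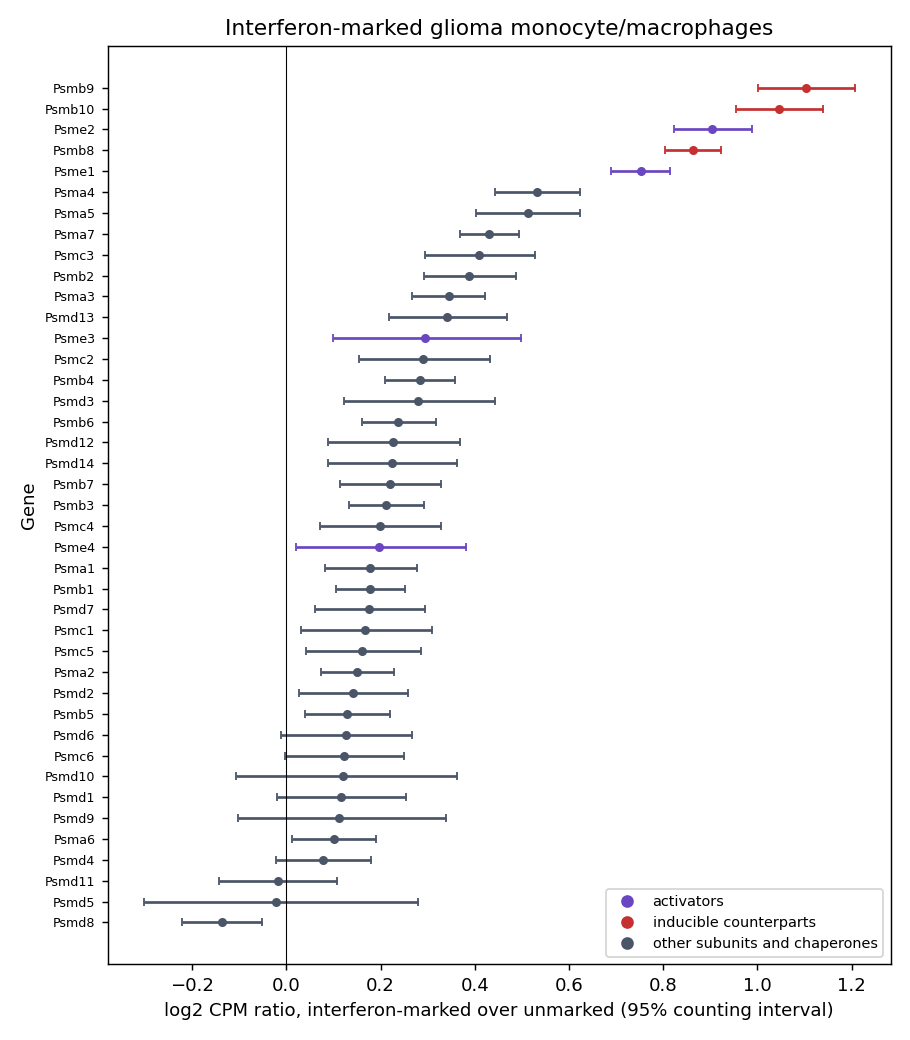
Log2 CPM ratio of interferon-marked over unmarked glioma monocytes or macrophages (x axis) for each gene (rows), with 95% counting intervals. The inducible genes (red, 0.86 to 1.10) and Psme1 and Psme2 (0.75 and 0.90) stand to the right of every other gene drawn, the next being Psma4 at 0.53; Psme2b, Psmc3ip, Psma8, Psmb11 and the assembly genes are not drawn.

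Dendritic cells of the glioma differed from glioma macrophages in the same activator pair, while the medians of the cap were near 0 or below. Their summed level was 1.18-fold higher, and 3 of 41 members were at least 1.5-fold higher, against 15.3% of the 12068 genes compared, with 3 lower (Psme4, Psmc1 and the uncertain Psme2b), against 30.2%. Centred on the median of all genes, which was -0.20, 5 were higher and 1 lower. Psme1 was at 1029 CPM in dendritic cells and 518.4 CPM in macrophages, a log2 ratio of 0.99 (0.95 to 1.03), and Psme2 at 536.6 against 318.2 CPM (0.75). Among the inducible subunits Psmb9 (1.35) and Psmb8 (0.98) were higher, but Psmb10 was lower at 223.2 against 280.9 CPM, a log2 ratio of -0.33 (-0.42 to -0.24). The 7 alpha and the 3 catalytic and 4 structural beta genes all had ratios above 0, from 0.01 in Psma6 to 0.42 in Psma3.

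Among members with at least 50 UMIs in each sum, the lowest in dendritic cells were Psme4 at 30.01 against 49.5 CPM (-0.72), the ATPase Psmc1 at 49.8 against 80.9 CPM (-0.70) and the large base subunit Psmd1 at 57.9 against 82.0 CPM (-0.50). In the lid, 7 of 8 genes had ratios below 0 and none passed 1.5-fold; their median of -0.10 lies above that of all genes, so its sign changes when ratios are centred on all genes. Over the alternative settings Psme1 kept a ratio of 0.84 to 1.19 and Psmc1 -1.25 to -0.50. The control held only 7 dendritic barcodes, and the groups were not compared in this class.

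T cells of the glioma had 1.26 times the summed level of the 44 control T cells. Of 40 members, 7 were at least 1.5-fold higher, against 21.7% of the 10483 genes compared, and none lower, against 28.9%. The median log2 ratio was 0.25 for members and -0.12 for all genes, and 12 members were higher when centred on all genes. The share of higher members was near the background, and the share of lower members was below it. Only 8 members had 50 UMIs on both sides. Of these Psmb3 was at 352.2 against 220.6 CPM (0.66) and Psma3 at 267.1 against 334.2 CPM (-0.33). Among T cells without cycle gene UMIs the sum was 4560.2 CPM in the glioma and 3754 CPM in the control (34 barcodes).

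Against glioma macrophages, the T cells had 0.928 times the summed level; the members' median log2 ratio was -0.16, and 0.02 when mitochondrial and ribosomal protein genes were left out of the totals. Of 41 members, 1 (Psmc3ip) was at least 1.5-fold higher, against 26.1% of 12497 genes, and 4 lower, against 28.9%. The structural beta subunits Psmb3 (0.48) and Psmb1 (0.47) were higher in T cells, whereas Psme4 (-0.79), Psmc1 (-0.66) and Psmd1 (-0.64) were lower, the same 3 genes that were lowest in dendritic cells, with at least 50 UMIs in each sum, against the same macrophages, which both comparisons share. Regulatory T cells (102 barcodes) had 6544 CPM, CD8 T cells (266) 6090.4 CPM and CD4 T cells (364) 5525 CPM. Macrophage marker UMIs amounted to 255 CPM in the T cell class against 2170 CPM in the macrophage class and 749 CPM in free RNA, and their part in the result was not tested.

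Cycling glioma T cells had a higher proteasome level than non-cycling ones, by an amount that was smaller at matched depth. Their summed level was 6981 CPM (199 barcodes) against 4560.2 CPM in non-cycling T cells (634 barcodes), 1.53-fold, and 26 of 40 members were at least 1.5-fold higher, against 19.8% of the 10025 genes compared, with 1 lower (Psme2b), against 15.8%. All 7 alpha genes and all 3 catalytic beta genes passed, with medians of 0.72 and 0.88. The base subunit Psmd1 was at 78.3 against 32.5 CPM (1.27), and Psmb2 at 227.3 against 106.3 CPM (1.10). The activators differed less, with Psme1 at 0.19, Psme2 at 0.28 and Psme4 at 0.06, and the structural Psmb1 was at 425.1 against 393.0 CPM (0.11). The core chaperone Psmg1 (1.66) and the deubiquitinase Uchl5 (1.47) were among the 7 of 29 assembly and regulatory genes at least 1.5-fold higher, against 19.8% of all genes. Of the 29, 1 was lower, against 15.8%.

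Cycling T cells were also deeper, with medians of 18621 against 6108 UMIs. At 10000 to 20000 UMIs, where both sides had at least 20 barcodes, the summed level was 6178 against 5414 CPM, 1.14-fold, and the median log2 ratio of the members was 0.29 against 0.70 without the depth limit. There 4 of 40 members were at least 1.5-fold higher, against 16.5% of the 7312 genes compared, and none lower, against 12.8%. Psme1 and Psme2 had log2 ratios of -0.19 and -0.14 in that band, opposite in sign to those without the limit. In cycling macrophages the sum was 1.21-fold that of non-cycling macrophages, with 3 of 41 members (Psmc3, Psma8 and Psmc3ip) at least 1.5-fold higher, against 22%, and none lower, against 9.21%. Among members with at least 50 UMIs in each sum the ATPase Psmc3 had the highest ratio there, 0.62, and Psmc1 and Psmd1 had 0.51. At matched depth the fold was 1.09 at 10000 to 20000 UMIs and 1.16 at 20000 UMIs or more.

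Within glioma T cells and macrophages the proteasome level was higher in each deeper band of barcodes. In glioma T cells the sum was 3744 CPM at 1000 to 2500 UMIs and 7271 CPM at 20000 or more, and in glioma macrophages it was 4866 and 6763 CPM. In control microglia the level was flat from 2500 to 20000 UMIs (3337, 3355 and 3338 CPM), with 2597 CPM below that range and 3597 CPM above it. Glioma dendritic cells had no such order, with 7097 CPM at 5000 to 10000 UMIs, 6462.5 CPM at 10000 to 20000 and 7889 CPM above. At 5000 to 10000 UMIs microglia had 3355 CPM, macrophages 5606 CPM and T cells 4342 CPM, so the difference between microglia and the other classes was present at that depth. What else differs between deep and shallow barcodes, doublets among them, was not tested.

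**Figure D4:**
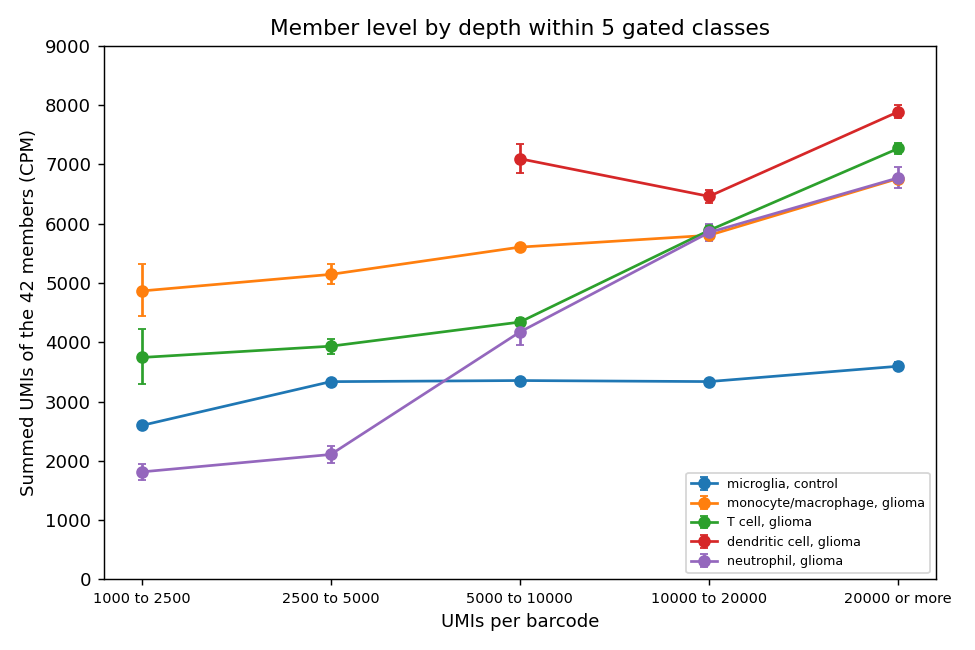
Summed level of the 42 genes (y axis, CPM) by depth of the barcode (x axis, bands of UMIs) in 5 gated classes, with 95% counting intervals; bands of under 20 barcodes are not drawn. Control microglia stay between 2597 and 3597 CPM, while the glioma neutrophil gate runs from 1814 to 6775 CPM.

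The neutrophil gate of the glioma held barcodes of different kinds, and the proteasome level of its shallow barcodes was low. Below 5000 UMIs (314 barcodes) the gate had neutrophil transcripts (S100a9 at 49635 CPM, Cxcr2 at 1166 CPM) and a summed level of 1967 CPM. At 10000 UMIs or more (104 barcodes) S100a9 was at 5460 CPM, Cxcr2 at 141 CPM and the antigen presentation genes Cd74 and H2-Aa at 10509 and 5058 CPM, which goes against the gate's name for those barcodes. With all barcodes the gate was 0.806-fold the macrophage level (1 member higher, against 16.2% of genes, and 4 lower, against 25.4%; 1 and 1 when centred on all genes). With both classes held under 5000 UMIs it was 0.385-fold, and 36 of 38 members were at least 1.5-fold lower, against 45.9% of the 5741 genes compared, with none higher, against 24.9%. The median log2 ratio there was -1.43 for the members and -0.44 for all genes compared.

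The roles of the particle and its activators had medians below 0 in the shallow neutrophil barcodes. The alpha ring had a median log2 ratio of -1.51, the ATPases -1.67 and the lid -1.57, while the activators had -1.04. Among members with 50 UMIs on both sides the lowest was Psma7, at -1.66, and the highest Psma1, at -0.71. Psmb9 was level (0.05), though Psmb8 and Psmb10 had -0.77 and -1.30. Between groups, the whole gate was 1.95-fold higher in the glioma than in the control (29 of 39 members at least 1.5-fold higher, against 32.6%, and none lower, against 18.3%). Under 5000 UMIs the ratio was 1.10, with a log2 interval of -0.12 to 0.40 and 8 of 27 members higher, against 30.6%, and 7 lower, against 22.2%, so a difference was not detectable at this depth (25 control barcodes). Granule genes of immature neutrophils differed in the same contrast, with Camp at 2.5 CPM in the glioma and 1402 CPM in the control and Ngp at 35.6 and 1789.6 CPM.

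Within control brain, endothelial cells had a higher proteasome level than microglia. The sum was 1.51-fold (139 against 12388 barcodes), and 19 of 41 members were at least 1.5-fold higher, against 42.2% of the 14175 genes compared, with none lower, against 22.2%. The share of higher members is near the background, and that of lower members is below it. Centred on the median of all genes, 0.36, the counts were 5 and 1, with the members' median at 0.22. Psmc1 was at 109.5 against 46.4 CPM (1.24), Psma7 at 311.1 against 139.5 CPM (1.16) and the lid subunit Psmd7 at 199.9 against 96.5 CPM (1.05). The 3 base chaperones had a median of 0.59, with Psmd5 at 1.02. Psme1 (0.41) and Psme3 (0.03) were less different. Of the 29 assembly and regulatory genes, 5 were at least 1.5-fold higher, against 42.2%, and 3 lower, against 22.2%. Nfe2l1, the transcription factor that maintains proteasome genes, was the highest of the 29 at 1.84, and Nfe2l2 the lowest at -1.38. A link of either gene to the proteasome level was not tested. Haemoglobin transcripts stood at 16094 CPM in the endothelial class, 4051 CPM in microglia and 6937 CPM in free RNA, and their part in the result was not tested.

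Microglia with cytokine transcripts differed little from other microglia. Cells with at least 3 UMIs of Il1a, Tnf and Gpr84 (6024 barcodes) had 0.955 times the summed level of cells with none (2451 barcodes). The marked cells were deeper, with medians of 7827 against 4404 UMIs. None of 41 members was 1.5-fold higher, against 9.45% of 13126 genes, with 3 lower, against 23.4%. The lid subunits Psmd8, at 156.8 against 111.3 CPM (0.49), and Psmd12, at 68.2 against 51.1 CPM (0.42), were the highest members, and Psmd5, at 13.7 against 20.6 CPM (-0.59), and Psma1, at 92.8 against 129.2 CPM (-0.48), were among the lowest. Psmb9 was lower at -0.51. The members' median was -0.11 and that of all genes -0.28, and on a scale centred on all genes the members' median was 0.18, with 2 higher and none lower. Border macrophages (10 barcodes) had 3357 CPM against 3333 CPM in microglia, a log2 ratio of 0.01 (-0.18 to 0.19). Counts past 1.5-fold there, 10 members higher, against 52.2% of genes, and 9 lower, against 19.9%, rest on 236 member UMIs and became 1 and 18 when centred on all genes.

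The 37 microglia of the glioma library were close to control microglia in summed level, at 1.06-fold (log2 interval 0.02 to 0.16). Their microglia marker genes stood at 1346 CPM, against 9001 CPM in control microglia, and the reason was not tested. Of 41 members, 2 were at least 1.5-fold higher, against 28.2% of the 13732 genes compared, and 6 lower, against 30.7%. The higher members were Psmb6, at 224.0 against 132.4 CPM (0.77), and Psme1, at 303.7 against 197.4 CPM (0.63). Among the 6 lower members were Psmd5 (-0.75), Psmd3 (-0.74), Psmd2 (-0.71) and Psmc2 (-0.60). Among the inducible genes, Psmb8 and Psmb9 had 0.79 and 0.88 in this contrast, whereas Psmb10 had -0.21.

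Across the 11 classes of at least 30 barcodes, the members most like the summed level of the others were Psma4 (Pearson r of 0.98 on log2 CPM), Psma7 (0.97) and Psma6 (0.94). The least alike were Psme3 (0.29), Psmc1 (0.52) and Psmd1 (0.53). These correlations describe 36 members over classes that share libraries and differ in depth.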

How the data were processed

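CD45+ cells of normal mouse brain and of glioma were profiled on droplets with 3′ kits of either of 2 chemistry versions, per the labels. The authors deposited raw counts, UMIs per gene and barcode without normalization, in 1 matrix per group. Cell Ranger 3.0.2, STAR, Seurat 3 and the builds GRCh38 and mm10 are named in the submitters' processing notes. Nothing maps barcodes to samples, so each group is 1 pooled library and no p-value is given. Barcodes with at least 1000 UMIs and at most 10% mitochondrial UMIs were kept, and no doublet caller was run. A class needed at least 4 UMIs over at least 2 of its markers and at least 3 times the UMIs of every other of 9 marker lists. As an exception, the border macrophage list was read first and was not set against the monocyte/macrophage list. UMIs were summed per class and expressed as CPM. Genes entered a ratio at a minimum of 20 UMIs in the sums together, and a member was counted as higher or lower at 1.5-fold. The 95% intervals are exact, from the Poisson distribution for a sum and the binomial for a ratio, and cover counting error only. Barcodes at ranks 45000 to 90000 in order of UMIs stood for free RNA. The named genes were the 3 highest and 3 lowest ratios among members with at least 50 UMIs in each sum, plus the catalytic subunits, Psmd4, Psmd14, the ATPases, the activators, members near 0, the inducible counterparts and the assembly and regulatory list. The members and lists were chosen with earlier results of these data known. The comparisons of cycling T cells, of microglia between libraries, and of neutrophils between libraries or under 5000 UMIs, and the bands of depth, were added after seeing the data. The ratio interval and the recovery of set folds were tested on simulated Poisson sums for the macrophage and T cell contrasts between libraries. Such sums hold only the counting error that the interval assumes. Gates, depth bands and variation between cells or animals were not simulated. Python 3.11.15, numpy 2.4.6, scipy 1.17.1 and pandas 2.3.3 were used.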

Additional observations from a re-analysis of the deposited data

How the results depend on the processing

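Each comparison was repeated under 10 other settings and 3 more chosen after seeing the data, where each could give a value. No paired analysis was possible because barcodes carry no map to samples. Of 256 counts of members, 208 stayed within 1.5 times the main count and 48 moved. The members' median log2 ratio took both signs over the settings in 4 comparisons: -0.44 to 0.02 in T cells and -0.02 to 0.23 in dendritic cells against macrophages, -0.17 to 0.18 in cytokine-marked microglia and -0.56 to 0.16 in border macrophages. In each sentence the counts are members at least 1.5-fold higher or lower. The shares over all genes under these settings are not given here. The counts therefore show only how the main counts moved, and not whether members differed from other genes.

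Centred on the median of all genes, 12 members were higher in glioma T cells than in control T cells, 5 higher and 1 lower in dendritic cells than in macrophages, 1 lower in the neutrophil gate than in macrophages, 2 higher and 0 lower in cytokine-marked microglia, 1 higher and 18 lower in border macrophages, and 5 higher and 1 lower in endothelium. With 30% free RNA subtracted the counts were 12 higher in glioma T cells, 2 higher in T cells than in macrophages, 6 lower in dendritic cells, 20 lower in the neutrophil gate, 6 higher in cycling and 7 in interferon-marked macrophages, 2 higher and 5 lower in cytokine-marked microglia, and 29 higher and 1 lower in endothelium. With 10% subtracted, 11 were higher in glioma T cells and 7 lower in the neutrophil gate. With at least 8 marker UMIs and 5 times every other list, 1 was lower in glioma T cells and 22 in the neutrophil gate. With a marker list at least 1.5 times every other list, 14 were higher in glioma T cells, 0 lower in the neutrophil gate and 2 higher in border macrophages. With at most 20% mitochondrial UMIs, 4 were lower in border macrophages.

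Among cells of 5000 to 15000 UMIs, 2 were lower in glioma than in control T cells, 2 higher in T cells than in macrophages, 2 higher in the neutrophil gate, 5 higher in cycling macrophages, 1 lower in interferon-marked macrophages and 1 lower in endothelium. With the mean of CPM over cells, 7 were lower in T cells and 37 in the neutrophil gate than in macrophages, 5 higher in cycling and 5 in interferon-marked macrophages, and 1 higher and 1 lower in cytokine-marked microglia. Without a minimum of UMIs per gene, 1 was lower in glioma T cells. With totals that leave out mitochondrial and ribosomal protein genes, 3 were higher and 2 lower in T cells than in macrophages and 8 lower in the neutrophil gate. Without cells that had a cycle gene UMI, 11 were higher and 1 lower in glioma than in control T cells, 12 lower in T cells and 8 in the neutrophil gate than in macrophages. The cause of these shifts was not tested. In border macrophages, Psmd14 and Psme3 changed sign with the list at 1.5 times the others (-0.0387 and 0.34). The stricter gate left 1 border macrophage and gave no value there. Small classes (10 border macrophages, 25 shallow control neutrophils, 37 glioma microglia) limit the precision of single genes.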

Other observations

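Barcodes that met no gate were not placed in a comparison. The 971 of the control had 3057 CPM of the 42 genes, and the 5997 of the glioma had 6312 CPM, with the inducible counterparts at 353 and 1263 CPM. In the glioma B cell gate (29 barcodes), marker transcripts of plasmacytoid dendritic cells stood at 911 CPM, and Ly6d, a marker of the gate, is also known from those cells.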
